A study of Mus musculus with 21 samples.

Results

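The mitochondrially encoded genes are the 37 genes that the deposited expression table places on chromosome MT and whose symbols begin with mt-, out of 54532 genes in the table. They comprise 13 protein-coding genes, 2 ribosomal RNA (rRNA) genes and 22 transfer RNA (tRNA) genes. Position and symbol define the members, and no measured value entered that rule. The set itself was chosen with earlier results of these data known. Their levels were taken from mRNA-seq of 7 mouse lines of glioma stem-like cells, each with 3 libraries and 21 in total. The values are FPKM, fragment counts scaled by gene length and by library size.

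The IDH1 mutant lines were PIC144-1, PIC144-3, PIC496-3 and PIC496-4. The IDH1 WT lines were PC134-0, PC308-1 and PC326-1. All 7 came from brain tumours of genetically engineered mice and were grown without treatment as non-adherent cultures, at reduced oxygen, in a neural stem cell medium with EGF, bFGF and heparin. The labels give no animal ages and no alleles beyond the IDH1 genotype. They do not say whether lines with a shared first name part (PIC144, PIC496) came from the same animal. The 3 libraries of a line are labelled as biological replicates (bio rep). Whether they came from separate cultures is not stated, so a spread between libraries may be technical. Genotype belongs to the line, so genotypes were compared over lines (n = 4 for IDH1 mutant, n = 3 for IDH1 WT), each line being the average of 3 libraries. Libraries held 15011668 to 21966351 fragments on genes. All 8 markers of glioma stem-like and neural progenitor cells were measured above the filter. By genotype, none passed the adjusted threshold of the limma test described below, and 1 had an unadjusted p under 0.05. Vim, an intermediate filament gene, was the most abundant (543 ± 102 FPKM in IDH1 mutant lines and 422 ± 80.8 FPKM in IDH1 WT, SD). None of the 7 microglial, 4 endothelial, 4 mature oligodendrocyte and 3 erythroid markers passed the filter. Of the fibroblast and pericyte markers 1 of 5 passed it (summed level 0.489 to 11.6 FPKM in IDH1 mutant and 0.268 to 0.792 FPKM in IDH1 WT libraries), of the neuronal markers 3 of 5 (13.7 to 34.6 FPKM in IDH1 mutant and 33.1 to 49.0 FPKM in IDH1 WT) and of the astrocyte markers 2 of 4 (1.32 to 9.53 FPKM in IDH1 mutant and 0.588 to 34.2 FPKM in IDH1 WT), and their part in the members' values was not tested.

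The mammalian mitochondrial genome is a small circle that is copied and transcribed inside the organelle. Both of its strands are transcribed as long precursors, which are cut at the tRNAs that lie between most of the mRNAs and rRNAs. Its mRNAs encode core subunits of respiratory complexes I, III and IV and of the ATP synthase, its rRNAs build the mitochondrial ribosome, and its tRNAs decode the mRNAs there. All other respiratory subunits, the polymerase and the RNA-cutting enzymes come from nuclear genes. Pieces of mitochondrial DNA have also been copied into nuclear chromosomes during evolution, and reads from such copies and from the organelle can be hard to tell apart.

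Levels of the 13 mRNAs covered several orders of magnitude. Averaged over all 21 libraries, mt-Co1 had 4606 FPKM, mt-Nd1 1501 FPKM and mt-Cytb 1110 FPKM. They were followed by mt-Nd2 at 608 FPKM, mt-Nd5 at 471 FPKM, mt-Nd6 at 419 FPKM and mt-Nd4 at 407 FPKM. Those 7 mRNAs formed the upper range, and within it mt-Nd5, mt-Nd6 and mt-Nd4 differed by less than the spread between lines. The other 6 mRNAs were much lower: mt-Co2 averaged 97.1 FPKM, mt-Co3 43.4 FPKM, mt-Atp6 30.9 FPKM, mt-Nd3 5.96 FPKM, mt-Nd4l 5.43 FPKM and mt-Atp8 0.739 FPKM. In their order on the chromosome these 6 are neighbours, between mt-Co1 and mt-Nd4, as the plot of levels along the chromosome shows. The rRNAs mt-Rnr1 and mt-Rnr2 averaged 501 and 248 FPKM, in libraries made by polyA capture followed by rRNA removal, which act on them differently from mRNAs.

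**Figure D1:**
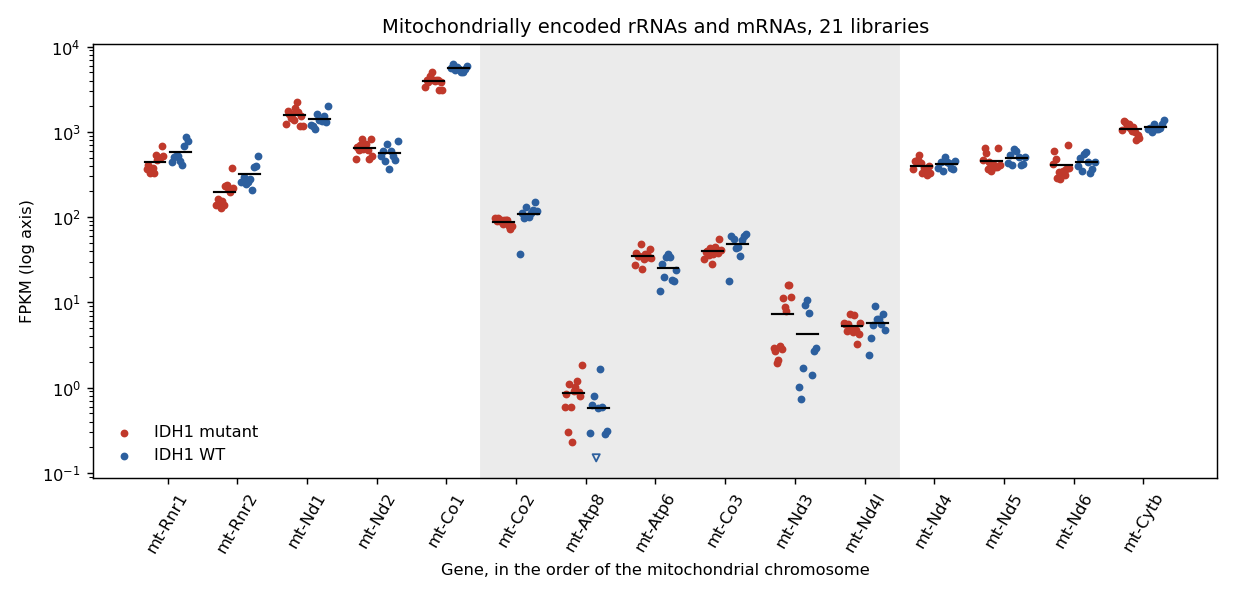
FPKM (log axis) of 2 rRNAs and 13 mRNAs in chromosomal order, with 1 point per library, IDH1 mutant left and IDH1 WT right of each gene, and the mean of lines as a black bar; the open triangle is a library at 0. The 6 genes on the grey band, from mt-Co2 to mt-Nd4l, averaged 0.739 to 97.1 FPKM, against 407 to 4606 FPKM for the other 7 mRNAs.

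The stretch of low values coincided with sequence that the mouse reference also holds on nuclear chromosome 1. Transcripts of the members were compared with all other annotated transcripts, and a copy was called near-identical at 99% identity or more over at least 25% of the member. This held for 7 members. The copies are annotated as pseudogenes: Gm29216 for mt-Co1, Gm28661 for mt-Co2, Gm10925 for mt-Atp6, Gm28437 for mt-Co3, Gm28438 for mt-Nd3, Gm10222 for mt-Nd4l and Gm28439 for mt-Nd4. In GRCm38 coordinates they run in the same order, on the minus strand, over chr1:24611535-24616188 (4654 bases), which corresponds to chrMT:6390-11042 (4653 bases). That mitochondrial interval holds 11 members whole and parts of mt-Co1 and mt-Nd4. The aligned bases were identical to the copy for mt-Co2 (681 bases), mt-Atp6 (678), mt-Co3 (783), mt-Nd4l (294) and mt-Nd4 (876 of its 1378). For mt-Co1, 483 of 1545 bases aligned with 1 substitution, and for mt-Nd3, 345 of 348 bases aligned with 1 substitution. Fragments from these stretches cannot be assigned with certainty to the organelle or to the nucleus, and values of these 7 genes are uncertain to that extent. The same doubt holds for the other members inside the interval, mt-Atp8, mt-Ts1, mt-Td, mt-Tk, mt-Tg and mt-Tr, for which no near-identical annotated transcript was found. Nuclear copies that are not annotated were not searched. Whether the shared sequence set the low levels was not tested.

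The first 75 bases of mt-Nd3 (chrMT:9459-9533, plus strand) and of Gm28438 (chr1:24613045-24613119, minus strand) are shown because they hold the difference between the pair, T3C, in capitals, counted from 1 at the start of mt-Nd3. The pair from the end region of mt-Co1 (chrMT:6390-6464, plus strand, bases 1063 to 1137 of the gene) and Gm29216 (chr1:24616114-24616188, minus strand) holds the difference A1066T, counted from the start of mt-Co1. All sequences are written 5′ to 3′ from the GENCODE M21 transcripts of GRCm38.
mt-Nd3: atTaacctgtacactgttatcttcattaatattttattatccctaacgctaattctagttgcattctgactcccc
Gm28438: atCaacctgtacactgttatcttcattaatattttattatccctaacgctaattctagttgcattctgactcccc
mt-Co1: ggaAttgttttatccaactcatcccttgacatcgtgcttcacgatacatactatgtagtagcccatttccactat
Gm29216: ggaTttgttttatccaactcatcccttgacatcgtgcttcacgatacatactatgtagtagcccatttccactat

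mt-Nd3, which encodes a small membrane subunit of complex I, separated the lines most clearly among the mRNAs, and not by genotype. Its level was 2.52 ± 0.513 FPKM in PIC144-1, 2.67 ± 0.498 in PIC144-3, 9.34 ± 1.78 in PIC496-3 and 14.5 ± 2.47 in PIC496-4, against 1.15 ± 0.507 in PC134-0, 9.15 ± 1.61 in PC308-1 and 2.35 ± 0.834 in PC326-1 (SD, 3 libraries each). PIC496-3, PIC496-4 and PC308-1 thus lay high, the other 4 lines lay low, and both genotypes held lines of each kind. The nuclear copy Gm28438 split the lines into the same 3 and 4, with high and low exchanged. It had 20.5 ± 3.87 FPKM in PIC144-1, 17.9 ± 5.75 in PIC144-3, 2.75 ± 0.260 in PIC496-3 and 0.984 ± 0.174 in PIC496-4, against 15.9 ± 4.99 in PC134-0, 1.04 ± 0.402 in PC308-1 and 17.9 ± 3.39 in PC326-1. No library of the 3 lines that were high in mt-Nd3 overlapped with a library of the 4 others, in either gene.

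The summed level of the pair varied less. It was 23.0, 20.6, 12.1 and 15.5 FPKM in IDH1 mutant lines, in the order named above, and 17.0, 10.2 and 20.2 FPKM in IDH1 WT lines. The share of the pair's fragments that was counted on mt-Nd3 was 11.01%, 13.4%, 77.1% and 93.7% in the IDH1 mutant lines, against 7.25%, 89.4% and 11.4% in the IDH1 WT lines. The lines therefore differed more in which gene of the pair the fragments were assigned to than in the summed level. The sums split by line too: PIC496-3, PIC496-4 and PC308-1 had the lowest, while single libraries overlapped. The T3C position is the one aligned base at which the pair differs in the reference, and the bases in the libraries' own reads were not analysed here. Across the 21 libraries, the limma F test for a difference between lines gave F = 49.4 for mt-Nd3 (Benjamini-Hochberg adjusted p = 4.15e-09), with adjusted p = 1.04e-07 within the 4 IDH1 mutant lines and 2.03e-07 within the 3 IDH1 WT lines. By F over all lines mt-Nd3 ranked 2918 of 13379 genes tested, in a set of lines where 89.6% of all genes passed.

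**Figure D2:**
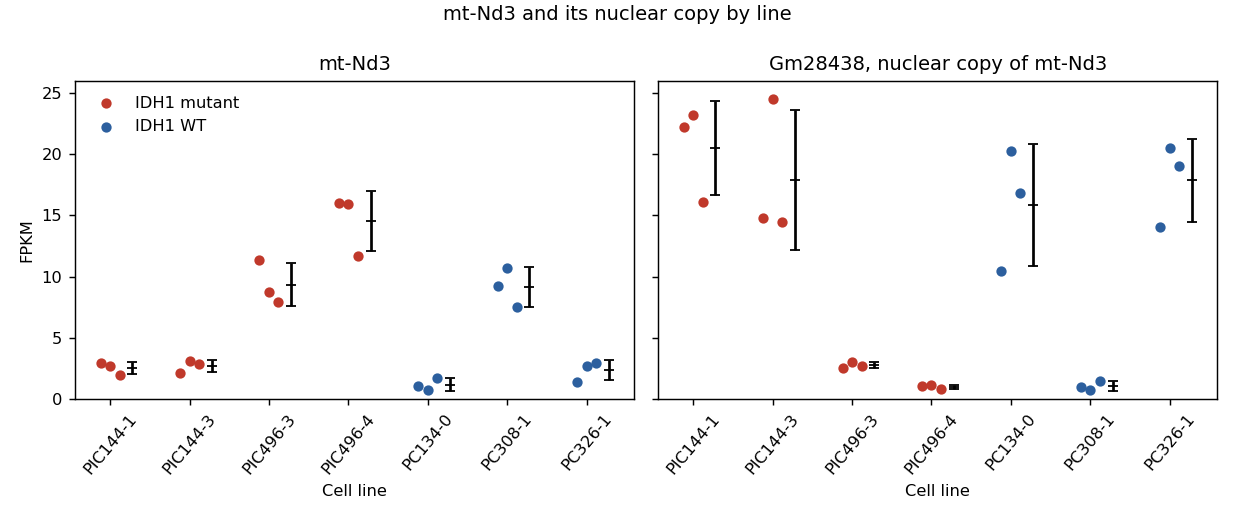
FPKM of mt-Nd3 (left panel) and of its nuclear copy Gm28438 (right panel) in each library, by line, with the mean ± SD of 3 libraries beside the points, on the same axis. Lines PIC496-3, PIC496-4 and PC308-1 are high in mt-Nd3 and low in Gm28438, and the other 4 lines are the reverse.

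The tRNA gene directly before mt-Nd3 showed the same split of lines in a handful of fragments. mt-Tg, the glycine tRNA (chrMT:9391-9458, plus strand), was picked out after its values were seen. It had 0, 0, 3 and 11 fragments in the IDH1 mutant lines, summed over the 3 libraries of a line and in the order named above, against 0, 10 and 0 fragments in the IDH1 WT lines. For the 4 lines at 0, the limit of 3 fragments allows up to 0.789 to 0.898 FPKM, and PIC496-4 reached 3.04 FPKM (exact 95% Poisson interval 1.52 to 5.44, counting error only). mt-Tr, the arginine tRNA directly after mt-Nd3, likewise chosen after its values were seen, had 3, 0, 2 and 14 fragments in the IDH1 mutant lines, against 0, 2 and 0 in the IDH1 WT lines. Between mt-Nd3 and mt-Nd4l, where mt-Tr lies, the annotated positions on chromosome 1 are spaced 1 base wider than those on MT. The mt-Tg sequence is printed because it lies against the split pair:
mt-Tg: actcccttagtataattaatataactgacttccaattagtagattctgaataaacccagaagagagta

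Of the other shared pairs, mt-Nd4l and Gm10222 leaned the same way. mt-Nd4l, a complex I membrane subunit, took 37.5%, 47.4%, 59.0% and 67.5% of the fragments of itself and Gm10222 in the IDH1 mutant lines and 42.1%, 64.7% and 53.2% in the IDH1 WT lines, so the same 3 lines were highest but by a smaller margin. mt-Co2 took 59.2 to 61.5% of the fragments of its pair in IDH1 mutant lines and 56.1 to 61.1% in IDH1 WT lines. For mt-Co3 the range was 67.1 to 70.6% in IDH1 mutant lines and 65.9 to 69.4% in IDH1 WT lines. mt-Atp6 took 51.0 to 52.9% in IDH1 mutant lines and 51.3 to 51.9% in IDH1 WT lines. These are line means. The first library of PC134-0 stood apart, with 49.1% for mt-Co2 beside 60.3% and 58.7% in its other libraries, and 55.8% for mt-Co3 beside 70.04% and 71.95%. mt-Co1 and mt-Nd4, which have long stretches outside the copied interval, held at least 99.3% of the fragments of their pairs in each line.

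Members took a small part of each library. In the IDH1 mutant lines 1.19 ± 0.0828% of gene fragments lay on them, against 1.503 ± 0.0709% in the IDH1 WT lines (SD over lines, n = 4 and n = 3). By line the share was 1.25%, 1.23%, 1.204% and 1.07% in PIC144-1, PIC144-3, PIC496-3 and PIC496-4, against 1.498%, 1.43% and 1.58% in PC134-0, PC308-1 and PC326-1. The line values did not overlap, while single libraries did (0.961 to 1.38% in IDH1 mutant and 1.34 to 1.77% in IDH1 WT). A sum over members is given without a test.

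Most of that gap was carried by mt-Co1. It made up 50.5 ± 2.89% of the members' fragments in IDH1 mutant lines and 58.2 ± 3.15% in IDH1 WT lines. With mt-Co1 left out, the members' share was 0.587 ± 0.0410% in IDH1 mutant lines and 0.629 ± 0.0652% in IDH1 WT lines, and the lines overlapped. The rRNAs took 0.0729 ± 0.0189% of fragments in IDH1 mutant lines and 0.108 ± 0.0349% in IDH1 WT lines. The tRNAs took 0.00486 ± 0.00120% in IDH1 mutant lines and 0.00442 ± 0.00166% in IDH1 WT lines. A share of fragments does not give the number of transcripts per cell. In bulk libraries, a lower share within cells and a different mix of cells cannot be told apart.

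**Figure D3:**
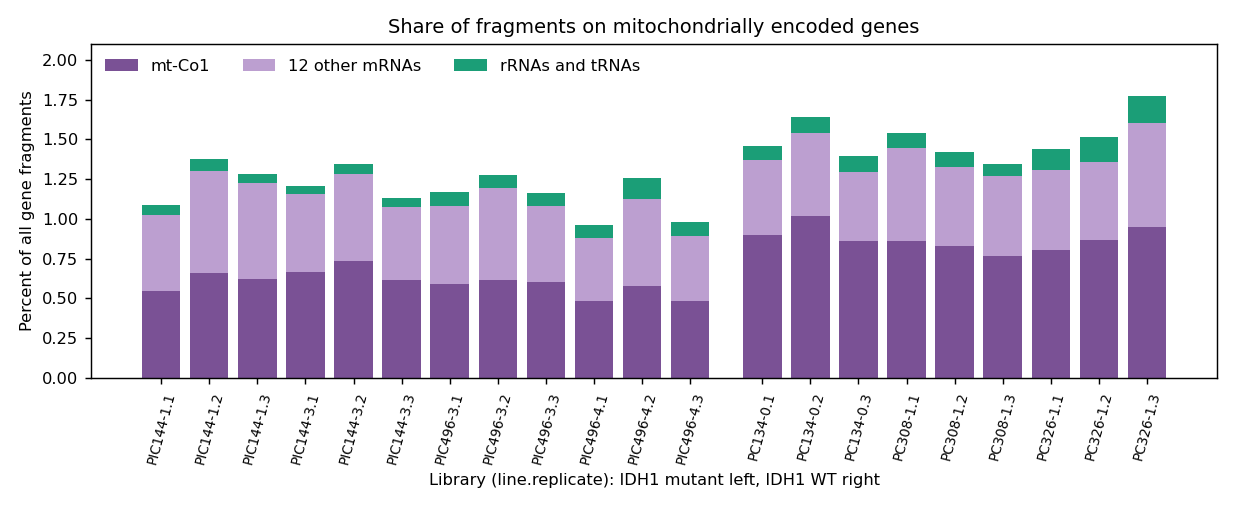
Percent of all gene fragments on mt-Co1, on the 12 other mRNAs and on rRNAs and tRNAs, stacked from 0, in each library, IDH1 mutant left and IDH1 WT right. The whole bars reach 0.961 to 1.38% in IDH1 mutant and 1.34 to 1.77% in IDH1 WT libraries, and the mt-Co1 segment is taller in IDH1 WT.

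Genotypes were compared gene by gene with limma on log2(FPKM + 0.5) of line means, fitted to the 13379 genes with a line mean of at least 0.5 FPKM in at least 3 lines. Of the 37 members 30 entered the fit: all 13 protein-coding, both rRNA and 15 of 22 tRNA genes. None of the 30 passed a Benjamini-Hochberg adjusted p of 0.05, where 0.12% of all genes did (0.0224% as higher and 0.0972% as lower in IDH1 mutant lines). At an unadjusted p under 0.05 there were 4 members (mt-Co1, mt-Tl1, mt-Rnr2 and mt-Atp6), where 12.8% of all genes had such a p. limma voom on recovered fragments had 3 members at an unadjusted p under 0.05 and called 0 members, but it called 0 of all 13379 genes too (1564 at an unadjusted p under 0.05), so its count says nothing about the members. Log2 differences were positive for 15 members and negative for 15, with a median of 0.02, against a median of 0.01 over all genes. The protein-coding members had 5 positive and 8 negative differences (median -0.07), the rRNAs 0 and 2, and the tRNAs 10 and 5 (median 0.15). Line means of the genotypes did not overlap for 2 members, mt-Co1 and mt-Tl1, both lower in IDH1 mutant lines, where 13.3% of all genes did not overlap in either direction (6.43% were lower and 6.82% higher in IDH1 mutant lines).

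**Figure D4:**
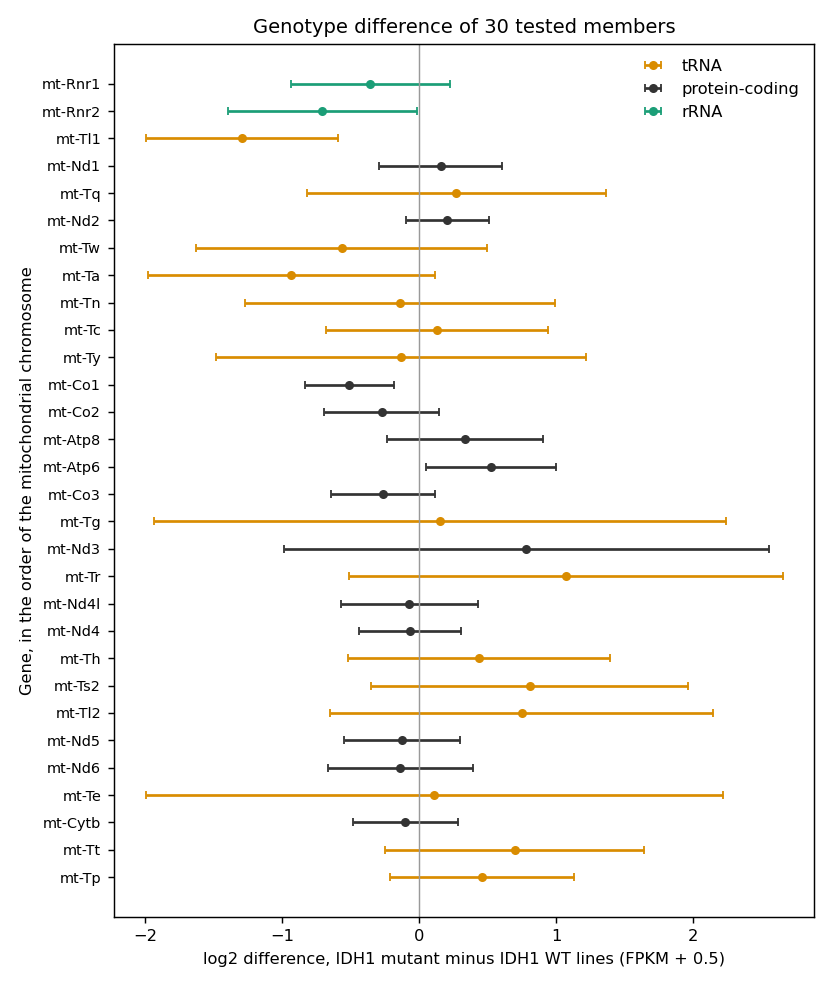
Log2 difference (IDH1 mutant minus IDH1 WT lines, FPKM + 0.5) with its 95% interval from limma for the 30 tested members in chromosomal order, coloured by gene kind. The points run from -1.30 (mt-Tl1) to 1.07 (mt-Tr), none passed the adjusted threshold, and the intervals of 4 members (mt-Tl1, mt-Co1, mt-Rnr2 and mt-Atp6) leave out 0.

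Of the 3 complex IV mRNAs, mt-Co1 stood apart. It encodes the catalytic core subunit of cytochrome c oxidase and lies at bases 5328 to 6872 of MT on the plus strand. Its level was 3777 ± 366, 4507 ± 460, 4000 ± 39.0 and 3353 ± 400 FPKM in PIC144-1, PIC144-3, PIC496-3 and PIC496-4, against 5730 ± 517, 5392 ± 380 and 5485 ± 413 FPKM in PC134-0, PC308-1 and PC326-1 (SD, 3 libraries). All 4 IDH1 mutant lines were below the lowest IDH1 WT line, and the libraries touched, at 3119 to 4978 FPKM (median 3985) in IDH1 mutant and 4975 to 6302 FPKM (median 5493) in IDH1 WT. The log2 difference was -0.51 (SE 0.140, 95% interval -0.83 to -0.18, limma adjusted p = 0.280). Over all 35 ways to divide the 7 lines, the exact permutation p was 0.0286 by the absolute difference of means, the smallest possible among 15 such tests, and 0.0571 when the smaller tail was doubled. Without the third libraries of all lines the exact permutation p by absolute difference was 0.0571. Within the IDH1 WT lines mt-Co1 did not pass the limma F test for a difference between lines (adjusted p = 0.722), and within the IDH1 mutant lines it passed (adjusted p = 0.00579). Set against mt-Cytb of the same library, mt-Co1 was 3.65 ± 0.408 times as high in IDH1 mutant lines and 4.84 ± 0.471 times in IDH1 WT lines. That ratio was not among those planned and was not tested.

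The other complex IV mRNAs, mt-Co2 (bases 7013 to 7696) and mt-Co3 (8607 to 9390), are the remaining core subunits of the enzyme. mt-Co2 had 94.6, 89.3, 92.8 and 76.8 FPKM in IDH1 mutant lines and 81.9, 114 and 130 FPKM in IDH1 WT lines. The genotypes overlapped through PC134-0, whose first library had 36.5 FPKM beside 111 and 97.8 FPKM in its other libraries. That library was also low in mt-Co3, at 17.7 FPKM beside 60.2 and 55.8 FPKM. Line means of mt-Co3 were 37.0, 35.9, 41.1 and 45.0 FPKM in IDH1 mutant lines and 44.6, 41.2 and 59.1 FPKM in IDH1 WT lines. The log2 differences were -0.27 (SE 0.182) for mt-Co2 and -0.27 (SE 0.164) for mt-Co3, with limma adjusted p = 0.531 and 0.508. Without the first library of PC134-0 both were -0.39, with adjusted p = 0.351 and 0.389 (range over all alternatives 0.351 to 0.902 for mt-Co2 and 0.337 to 0.914 for mt-Co3).

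The complex I mRNAs gave no member past the threshold and no shared direction: 3 of 7 differences were positive. mt-Nd1 (bases 2751 to 3707), a membrane subunit at the quinone-binding end of the enzyme, had 1540, 1491, 1970 and 1284 FPKM in IDH1 mutant lines and 1148, 1448 and 1625 FPKM in IDH1 WT lines. mt-Nd2 (3914 to 4951), a pump subunit of the membrane arm, had 588, 721, 662 and 610 FPKM in IDH1 mutant lines and 525, 561 and 589 FPKM in IDH1 WT lines. Its 2 groups met, with the lowest IDH1 mutant line at the level of the highest IDH1 WT line. The log2 differences were 0.16 (SE 0.193) for mt-Nd1 and 0.21 (SE 0.132) for mt-Nd2, with limma adjusted p = 0.737 and 0.521. mt-Nd4 (10167 to 11544) and mt-Nd5 (11742 to 13565), the other large pump subunits, averaged 400 ± 62.2 and 454 ± 82.0 FPKM in IDH1 mutant lines and 416 ± 37.6 and 493 ± 72.4 FPKM in IDH1 WT lines. Their log2 differences were -0.06 and -0.12. mt-Nd4l (9877 to 10173) averaged 5.24 ± 0.621 FPKM in IDH1 mutant lines and 5.68 ± 1.70 FPKM in IDH1 WT lines, a log2 difference of -0.07. For mt-Nd3 (9459 to 9806) the log2 difference was 0.78 with an SE of 0.763 (limma adjusted p = 0.667). Summed with its nuclear copy it was 0.18 (adjusted p = 0.810, range over all alternatives 0.352 to 0.964).

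mt-Nd6 (13552 to 14070) is the complex I subunit whose mRNA comes from the opposite strand to the other 12. It averaged 405 ± 102 FPKM in IDH1 mutant lines and 439 ± 75.05 FPKM in IDH1 WT lines, a log2 difference of -0.14 (SE 0.229, limma adjusted p = 0.812). Its level followed that of mt-Nd5, the neighbour with which it shares 14 bases on the other strand. The ratio of mt-Nd6 to mt-Nd5 was 0.768 to 1.08 in IDH1 mutant libraries and 0.812 to 0.965 in IDH1 WT libraries. The libraries were strand-specific, but whether strand was used in counting is not given in the sources used here. Reads of the 2 genes in the shared part therefore cannot be told apart. If strand was not used, reads from the opposite strand anywhere within mt-Nd6 would also be counted on it. Its level and the ratios given here are uncertain to that extent. Set against the median of the 12 mRNAs of the other strand, mt-Nd6 was at 1.73 ± 0.434 in IDH1 mutant lines and 1.71 ± 0.262 in IDH1 WT lines. Those 12 include the low mRNAs from mt-Co2 to mt-Nd4l, which pull that median down. mt-Nd1, mt-Nd2, mt-Nd5 and mt-Cytb lie outside the copied interval. Against their median, mt-Nd6 was at 0.475 ± 0.150 in IDH1 mutant lines and 0.507 ± 0.0898 in IDH1 WT lines.

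Complex III has 1 member, mt-Cytb (14145 to 15288), the cytochrome b that carries both quinone sites of the enzyme. It had 1242, 1171, 1061 and 849 FPKM in IDH1 mutant lines and 1070, 1132 and 1245 FPKM in IDH1 WT lines. The ranges overlapped, with PIC496-4 below all other lines, and the log2 difference was -0.10 (SE 0.166, limma adjusted p = 0.811). The lines differed among themselves (F test, limma adjusted p = 0.000545).

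Among the ATP synthase mRNAs, mt-Atp6 was lowest in PC134-0 and PC326-1. It encodes the membrane subunit that forms the proton path (7927 to 8607). Levels were 33.2, 36.0, 35.1 and 36.6 FPKM in IDH1 mutant lines, against 20.6 FPKM in PC134-0, 34.98 FPKM in PC308-1 and 19.9 FPKM in PC326-1. PC308-1 lay inside the IDH1 mutant range. The log2 difference was 0.52 (SE 0.205, 95% interval 0.05 to 1.00, limma adjusted p = 0.373, exact permutation p = 0.0571). The lines differed within IDH1 WT (F test, adjusted p = 0.00732) and not detectably within IDH1 mutant (adjusted p = 0.944). Its nuclear copy Gm10925 followed the same pattern, at 31.0, 34.6, 31.5 and 35.6 FPKM in IDH1 mutant lines and 19.3, 32.6 and 18.9 FPKM in IDH1 WT lines. The aligned 678 bases of the pair are identical, so the copy is no separate measure of the pattern. The gene directly after mt-Atp6 did not share it: the ratio of mt-Atp6 to mt-Co3 was 0.893, 0.984, 0.856 and 0.820 in IDH1 mutant lines and 0.533, 0.857 and 0.337 in IDH1 WT lines. In the first library of PC134-0, low in both genes, that ratio was 0.774, beside 0.465 and 0.359 in its other libraries.

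mt-Atp8 (7766 to 7969), the small accessory subunit of the ATP synthase membrane part, was the lowest mRNA, with 0 to 7 fragments per library. It averaged 0.865 ± 0.299 FPKM in IDH1 mutant lines and 0.572 ± 0.175 FPKM in IDH1 WT lines, a log2 difference of 0.33 (SE 0.246, limma adjusted p = 0.567). Its 204 bases are printed because the last 43, in capitals, are read in another frame as the start of mt-Atp6, and a fragment there cannot be assigned to either gene with certainty.
mt-Atp8: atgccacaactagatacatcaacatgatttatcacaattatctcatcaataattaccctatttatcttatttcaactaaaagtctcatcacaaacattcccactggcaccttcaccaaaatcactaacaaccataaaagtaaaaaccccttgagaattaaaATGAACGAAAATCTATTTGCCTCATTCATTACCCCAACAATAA

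The rRNAs of the small and large mitochondrial ribosomal subunits, mt-Rnr1 (bases 70 to 1024) and mt-Rnr2 (1094 to 2675), varied between lines of both genotypes. mt-Rnr2 had 147, 140, 228 and 267 FPKM in IDH1 mutant lines and 267, 251 and 435 FPKM in IDH1 WT lines. PIC496-4 reached the IDH1 WT range, through its second library at 380 FPKM beside 198 and 222 FPKM in the others. The log2 difference of mt-Rnr2 was -0.71 (SE 0.298, 95% interval -1.40 to -0.02, limma adjusted p = 0.382, exact permutation p = 0.114). mt-Rnr1 had 372, 348, 498 and 565 FPKM in IDH1 mutant lines and 489, 462 and 775 FPKM in IDH1 WT lines, a log2 difference of -0.36 (SE 0.251, adjusted p = 0.554). The lowest rRNA levels were thus those of the PIC144 lines and the highest those of PC326-1. Both passed the F test between lines (adjusted p = 1.25e-06 for mt-Rnr1 and 4.74e-06 for mt-Rnr2). The summed FPKM of the rRNAs over that of the mRNAs was 0.0756 ± 0.0252 in IDH1 mutant lines and 0.0875 ± 0.0257 in IDH1 WT lines. Line means of the genotypes overlapped in that measure. The ratio of mt-Rnr1 to mt-Rnr2 was 2.35 ± 0.182 in IDH1 mutant lines and 1.84 ± 0.0211 in IDH1 WT lines, with no overlap of line means. Single libraries overlapped, at 1.79 to 2.69 in IDH1 mutant and 1.48 to 2.17 in IDH1 WT, and the ratio was not tested. Among all single genes tested, line means did not overlap for 13.3%, and no such share was taken for ratios.

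Signs of RNA without a polyA tail also differed by line. Summed histone genes, most of whose mRNAs lack such a tail, were at 197 ± 50.6 FPKM in IDH1 mutant lines and 279 ± 59.2 FPKM in IDH1 WT lines. Gm26917, a nuclear noncoding gene taken here as a sign of rRNA carry-over, was at 87.3 ± 45.8 FPKM in IDH1 mutant lines, with 151 FPKM in PIC496-4, and at 48.5 ± 2.57 FPKM in IDH1 WT lines. Their part in the rRNA and tRNA values was not tested.

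tRNA genes are short and their mature products carry no polyA tail. mt-Tp had 122 to 963 fragments per library, while many other tRNA genes had 0 in at least 1 library. No fragment was counted on mt-Tf, mt-Ts1 and mt-Td in any library; mt-Ts1 and mt-Td lie in the copied interval. The 6 highest were mt-Tp (404 FPKM over all libraries), mt-Tc (126), mt-Tn (63.1), mt-Tw (34.8), mt-Tl1 (30.8) and mt-Ts2 (6.43). They carry proline, cysteine, asparagine, tryptophan, leucine and serine. mt-Tp (chrMT:15356-15422, minus strand) is printed as the tRNA gene with the highest level:
mt-Tp: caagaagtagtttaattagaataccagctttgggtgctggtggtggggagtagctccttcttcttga

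mt-Tl1 (bases 2676 to 2750) fills the gap between mt-Rnr2 and mt-Nd1. It had 22.5 ± 5.22, 13.3 ± 6.48, 21.2 ± 1.94 and 16.6 ± 4.11 FPKM in PIC144-1, PIC144-3, PIC496-3 and PIC496-4, and 59.9 ± 9.09, 27.7 ± 5.34 and 54.4 ± 13.2 FPKM in PC134-0, PC308-1 and PC326-1 (SD, 3 libraries). The line means did not overlap, and 8 to 83 fragments per library lay behind them. The log2 difference was -1.30 (SE 0.302, 95% interval -1.996 to -0.60, limma adjusted p = 0.242). Its neighbours are mt-Rnr2 on the 5′ side, with a log2 difference of -0.71, and mt-Nd1 on the 3′ side, with 0.16, and none of these 3 genes passed the adjusted threshold. mt-Nd1 was at 10.47, 10.6, 8.60 and 5.04 times mt-Rnr2 in IDH1 mutant lines and at 4.32, 5.85 and 3.72 times in IDH1 WT lines. The genotypes overlapped in that ratio through PIC496-4.

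**Figure D5:**
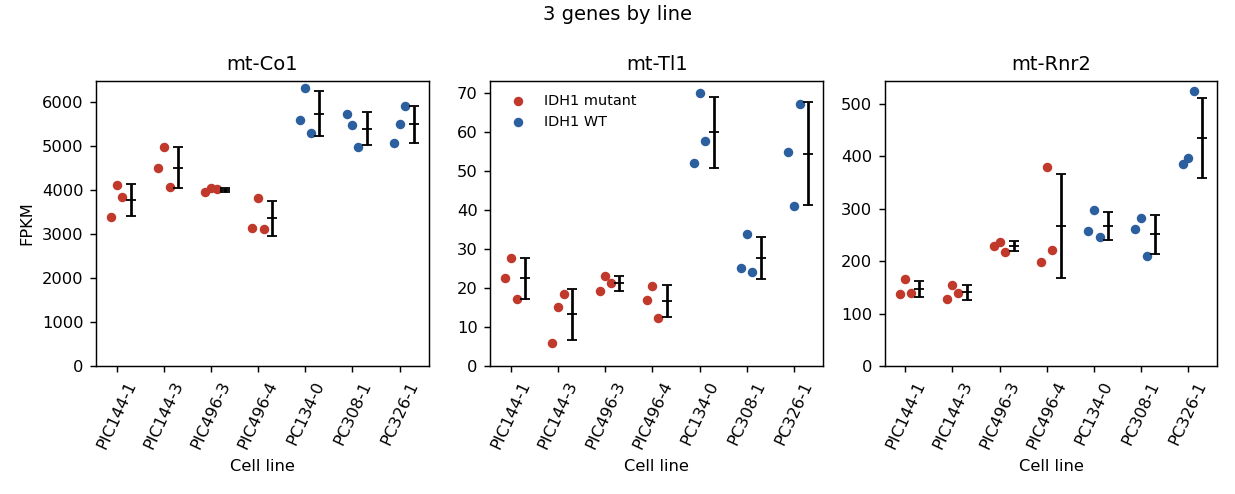
FPKM of mt-Co1, mt-Tl1 and mt-Rnr2 in each library, by line, with the mean ± SD of 3 libraries beside the points; each panel has its own axis from 0. Line means of the genotypes do not overlap for mt-Co1 and mt-Tl1, and they overlap for mt-Rnr2 through PIC496-4, at 267 FPKM.

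For the other 5 of these tRNAs the genotypes overlapped. mt-Tp averaged 456 ± 124 FPKM in IDH1 mutant lines and 334 ± 108 FPKM in IDH1 WT lines, a log2 difference of 0.46 (limma adjusted p = 0.519). The log2 differences were 0.13 for mt-Tc, -0.14 for mt-Tn, -0.57 for mt-Tw and 0.81 for mt-Ts2. mt-Tn differed strongly between lines, with 37.9, 39.1, 58.6 and 101 FPKM in IDH1 mutant lines and 60.04, 31.4 and 114 FPKM in IDH1 WT lines (F test, limma adjusted p = 1.14e-06). PIC496-4 and PC326-1 were the highest lines for mt-Tn, mt-Tc and mt-Tw.

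Over the 21 libraries, differences between lines were less frequent among members than among all genes. The F test passed for 20 of 30 members (8 protein-coding, 2 rRNA and 10 tRNA), where 89.6% of all tested genes passed. Within the IDH1 mutant lines it passed for 16 of 30 members (80.7% of all genes), and within the IDH1 WT lines for 15 of 30 (61.4% of all genes). The 5 mRNAs that did not pass over all lines were mt-Nd2 (adjusted p = 0.550), mt-Co3 (0.386), mt-Atp8 (0.339), mt-Co2 (0.0900) and mt-Nd4l (0.0745). All of these but mt-Nd2 lie in the copied interval. Over all lines, 22 of 30 members passed without the first library of PC134-0 (11892 of 13383 genes). Without the second library of PIC496-4, 18 of 30 passed (12075 of 13368 genes). The part of depth and fragment assignment in these counts was not tested. No test compared the 2 shares.

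Nuclear genes that serve the mitochondrial genome were read beside the members. Over all 13379 genes tested, 6796 log2 differences were positive and 6583 negative, 0.12% were called and 12.8% had an unadjusted p under 0.05. Of 10 genes for transcription of the mitochondrial genome, 8 had positive and 2 negative log2 differences (median 0.08), and limma called 0, with 0 at an unadjusted p under 0.05. Polrmt, the mitochondrial RNA polymerase, had 7.80 ± 1.61 FPKM in IDH1 mutant lines and 5.64 ± 0.603 FPKM in IDH1 WT lines (log2 difference 0.42, limma adjusted p = 0.392). Tfb1m, a methyltransferase of the small rRNA, had 1.81 ± 0.139 FPKM in IDH1 mutant lines and 2.28 ± 0.221 FPKM in IDH1 WT lines (log2 difference -0.27). Of 11 genes for replication and nucleotide supply, 3 were positive and 8 negative (median -0.17), with 0 called and 1 at an unadjusted p under 0.05. That was Primpol, a primase-polymerase, at 1.19 ± 0.217 FPKM in IDH1 mutant lines and 2.12 ± 0.288 FPKM in IDH1 WT lines (log2 difference -0.64, adjusted p = 0.292). Mgme1, an exonuclease for mitochondrial DNA, had 6.80 ± 1.18 FPKM in IDH1 mutant lines and 10.3 ± 3.06 FPKM in IDH1 WT lines.

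The 17 genes for processing and stability of mitochondrial RNA had 15 positive and 2 negative differences (median 0.25, against 0.01 over all genes), with 0 called and 1 at an unadjusted p under 0.05. Elac2, which cuts the 3′ ends of tRNAs out of the precursors, had 17.2 ± 5.64 FPKM in IDH1 mutant lines and 10.4 ± 2.61 FPKM in IDH1 WT lines (log2 difference 0.68, limma adjusted p = 0.373). Supv3l1, a helicase of mitochondrial RNA decay, had 14.6 ± 3.70 FPKM in IDH1 mutant lines and 10.96 ± 0.345 FPKM in IDH1 WT lines. Of 6 regulators of mitochondrial biogenesis, 4 were positive and 2 negative (median 0.05), with 0 called and 1 at an unadjusted p under 0.05. Pprc1, a coactivator, had 16.4 ± 3.23 FPKM in IDH1 mutant lines and 11.2 ± 2.11 FPKM in IDH1 WT lines (log2 difference 0.53, adjusted p = 0.361). Nrf1, a transcription factor for respiratory genes, had 5.71 ± 0.612 FPKM in IDH1 mutant lines and 5.12 ± 0.433 FPKM in IDH1 WT lines.

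The nuclear partners of the mitochondrial mRNAs had mostly positive differences. Of 72 nuclear subunits of complexes I, III and IV and the ATP synthase, 61 had positive and 11 negative log2 differences, with a median of 0.21. Over all 13379 genes tested, 6796 were positive and 6583 negative, with a median of 0.01. Of the 72, limma called 0 as higher and 1 as lower in IDH1 mutant lines, where 0.12% of all genes were called. An unadjusted p under 0.05 was found for 11 of the 72, where 12.8% of all genes had such a p. The one called was Cox4i2, an isoform of complex IV subunit 4 tied to low oxygen, at 0.308 ± 0.264 FPKM in IDH1 mutant lines and 9.46 ± 2.70 FPKM in IDH1 WT lines (log2 difference -3.64, limma adjusted p = 0.0117). Their summed level was 5620 ± 680 FPKM in IDH1 mutant lines and 4853 ± 224 FPKM in IDH1 WT lines. By complex, the positive and negative counts were 28 and 8 for complex I, 9 and 0 for complex III, 11 and 1 for complex IV and 13 and 2 for the ATP synthase. For comparison, the mitochondrial mRNAs of these complexes had 3 and 4, 0 and 1, 0 and 3, and 2 and 0. No test compared these counts.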

How the data were processed

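FPKM of 54532 genes in 21 libraries were deposited by the authors, together with gene lengths (unit other). Per the submitters' processing notes, reads were aligned with HISAT2 and the build was mm39. How fragments were counted, with which annotation and whether by strand, is not given in the sources used here. Positions of all 37 members equal those of GENCODE for GRCm38. Only these positions on chromosome MT were compared, so the build behind the nuclear genes was not checked. GRCm38 is named because the copies' positions and all sequences were taken from GENCODE M21.

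Whole fragments were recovered from FPKM times length: 100% of values under 1000 fragments were whole within 0.05. Copies were searched with blastn 2.17.0 among GENCODE M21 transcripts. Genotype tests used limma 3.58.1 in R 4.3.3 (eBayes with trend and robust) on log2(FPKM + 0.5) of line means. Differences between lines used an F test over libraries, whose p-values may measure technical spread. Adjusted p-values were Benjamini-Hochberg adjusted over the 13379 genes fitted, or over the genes of the alternative's own fit, and calls were made under 0.05. Exact permutation p-values are unadjusted; they count divisions with at least as large an absolute difference of means. On simulated data with 13379 genes, the genotype fit recovered 38% of genes at a log2 change of 1 and 86% at 2, with 7 false calls. Alternatives were other pseudocounts, filters, scalings and fits, and leaving out libraries, replicates and lines. Depth limits the members with few fragments, such as mt-Atp8, mt-Tg and mt-Tr. Fragments are not independent molecules, so intervals cover counting error only.

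The members, the gene lists and the tests were chosen with earlier results of these data known. Named were the protein-coding and rRNA members, the 6 tRNAs with the highest mean FPKM, and of each nuclear list the genes that passed or the 2 with the smallest p, except that the respiratory complexes and marker lists are given by counts and ranges. Ratios of mt-Co1 to mt-Cytb, mt-Atp6 to mt-Co3, mt-Nd1 to mt-Rnr2 and mt-Nd6 to mt-Nd5 were added to those planned. So was mt-Nd6 over the median of mt-Nd1, mt-Nd2, mt-Nd5 and mt-Cytb. No ratio was tested. Figures were drawn with matplotlib 3.10.9.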

Additional observations from a re-analysis of the deposited data

How the results depend on the processing

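limma called 0 of the members by genotype under all 27 alternatives run, with 2 to 6 at an unadjusted p under 0.05. Calls over all genes ranged from 0 (voom, without PC134-0 and without PC326-1, where no member could be called) to 552 of 13379 with the line as a random effect. The planned edgeR test was not run, since the deposited unit is FPKM; limma voom on recovered fragments, chosen after seeing the data, took its place. Of the single-gene differences by genotype, 544 values under the alternatives kept their direction and side of the threshold and 14 changed sign, none of a gene past the threshold. These were mt-Tc at -0.000622 with quantile normalization, and otherwise values with a replicate or line left out, which ran from -0.0027 to 0.27 for mt-Nd1, -0.0195 to 0.32 for mt-Nd2, -0.30 to 0.11 for mt-Nd4l, -0.15 to 0.0077 for mt-Nd4, -0.17 to 0.0108 for mt-Cytb, -0.12 to 0.44 for mt-Tc and -0.60 to 0.32 for mt-Tn. The cause was not tested. Over all alternatives the log2 difference was -0.58 to -0.44 for mt-Co1 (adjusted p 0.113 to 0.835) and -1.64 to -1.09 for mt-Tl1 (0.0628 to 0.835).

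Members passing the F test between lines numbered 16 to 18 with a replicate left out (12 to 13 within IDH1 mutant and 6 to 13 within IDH1 WT lines). Calls over all genes fell too, to 10788 to 11644 (9188 to 10514 and 5989 to 7657). With protein-coding genes only there were 8, 7 and 5, since 13 members entered. The difference in the members' share, -0.315 points of fragments, was -0.653 points as a share of TPM and -0.0418 points without mt-Co1. Without replicate 1, 4 members (mt-Nd2, mt-Co1, mt-Co2 and mt-Atp6) had an exact permutation p under 0.05, against 1 (mt-Co1) with all libraries. Without replicate 3 it was mt-Atp8 in place of mt-Co1, whose exact permutation p was then 0.0571. Deviations of libraries with the same number correlated over 0.1 in 14 of 63 pairs from different lines (-0.124 to 0.292), and those with other numbers in 10 of 126. Since most same-numbered pairs were under 0.1 and the labels name no shared batch or day, they were not treated as pairs. With the line as a random effect, the genotype fit called 440 of 13379 genes with the replicate number as a block and 552 without. Both fits called 0 members. With the replicate block, the F test passed for 19 members (12080 genes), 17 within IDH1 mutant (10959) and 17 within IDH1 WT lines (8468).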
